A study of Homo sapiens with 6 samples.

Results

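The genes described here encode Polycomb proteins, histone lysine methyltransferases, histone demethylases and the enzymes that add methyl groups to DNA or oxidise them. They were followed in MV4;11 cells, an established human leukemia line with a rearranged MLL gene. The 51 genes were taken by name, and a gene counted as measured when a probe set was annotated to it alone under its current or an earlier symbol. Of these 51 genes, 48 were measured, out of 18239 genes on the array, through 193 of the 49293 tested probe sets. The levels of RNF2, CBX8 and BAP1 were not analysed here. The cells had been kept for 6 days with 4 µM MI-389, a small molecule that the labels describe as blocking the contact between menin and MLL, or with DMSO alone. Both cultures held 0.25% DMSO, the agent was renewed when the medium was changed midway, and each group had 3 arrays. All samples come from 1 cell line, and the labels do not say how the replicate cultures were separated, so the p-values reflect only how far these arrays scattered, part of which may be technical.

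Polycomb proteins keep genes silent through a pair of complexes. PRC2 methylates lysine 27 of histone H3, and PRC1 attaches ubiquitin to histone H2A. MLL and its relatives act in the opposite sense by methylating lysine 4 of histone H3, which marks active promoters and enhancers, and histone demethylases take off the methyl groups. DNA methyltransferases write 5-methylcytosine and TET enzymes oxidise it. Several of these genes, among them TET2, DNMT3A, ASXL1 and EZH2, are recurrently mutated in myeloid leukemia.

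The values are deposited log2 levels, 1 per probe set and array, and each gene was represented by its probe set with the highest mean over all arrays. A difference is MI-389 minus DMSO on the log2 scale, with its standard error (SE), and a gene is said to have risen or fallen when the adjusted p from limma, over all 18239 genes, was under 0.05. The table held no detection calls. A log2 level of 5.49, the highest value of nonspecific control probe sets on any array once the probe set richest in G and C was left out, served as a guide to background. With that probe set kept the highest value was 7.87, a level that the means of 24 of the 48 genes reached, 10 of them called. Arrays of a group correlated at 0.997 to 0.998 across genes, and arrays of different groups at 0.979 to 0.981. Of 9 measured myelomonocytic markers, 4 rose and 3 fell (77.8% called, beside 34.1% of all genes). The rises were those of ITGAM (7.71 in MI-389 cells and 4.93 in DMSO cells), an integrin of mature myeloid cells, LYZ (13.13 in MI-389 cells and 11.07 in DMSO cells), CSF1R (7.85 in MI-389 cells and 6.19 in DMSO cells) and CD14. The falls were those of MEIS1 (4.47 in MI-389 cells and 8.18 in DMSO cells), a homeobox gene that MLL fusion proteins are known to sustain, FLT3 (9.59 in MI-389 cells and 11.01 in DMSO cells) and SPI1. CD14 and SPI1 had both groups under the guide, and CD4 and FUT4 were not called. The mean log2 level of these 9 markers was 7.46 to 7.51 on the MI-389 arrays and 7.21 to 7.46 on the DMSO arrays, and their part in the differences given below was not tested. All 5 T cell markers, all 3 measured erythroid markers, 3 of 4 measured B cell markers and 3 of 4 epithelial markers had both groups under the guide. The exceptions were PAX5 (6.75 in MI-389 cells and 6.66 in DMSO cells) and KRT18 (4.79 in MI-389 cells and 6.05 in DMSO cells).

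With MI-389, single genes of nearly every complex differed in level, and the set as a whole had a median close to that of the array. Of the 48 measured genes, 14 rose and 8 fell, against 18.4% higher and 15.7% lower among all genes (34.1% in either direction). In bulk RNA, a changed share of cells that express a gene and a changed level per cell cannot be told apart. The median difference was 0.06, beside 0.02 over all genes. Of the members, 7 passed the threshold with a difference of at least 0.5 in size, where 12.5% of all genes did, and 1, TET2, with a difference of at least 1, where 3.87% did. The members are brighter than most genes. For 42 of them the mean level reached the guide, and 19 of these 42 (45.2%) were called, while 57.8% of all genes at such levels were called. The 3 MI-389 arrays and the 3 DMSO arrays did not overlap for 29 members, against 45.3% of all genes. By class, 7 Polycomb genes rose and 4 fell of 23 measured, 2 lysine methyltransferase genes rose and 1 fell of 9, 3 demethylase genes rose and 3 fell of 10, and 2 genes of DNA methylation rose and 0 fell of 6. The 26 genes that were not called had differences between -0.17 and 0.19, and the outermost bounds of their 95% intervals were -0.35 and 0.39.

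**Figure D1:**
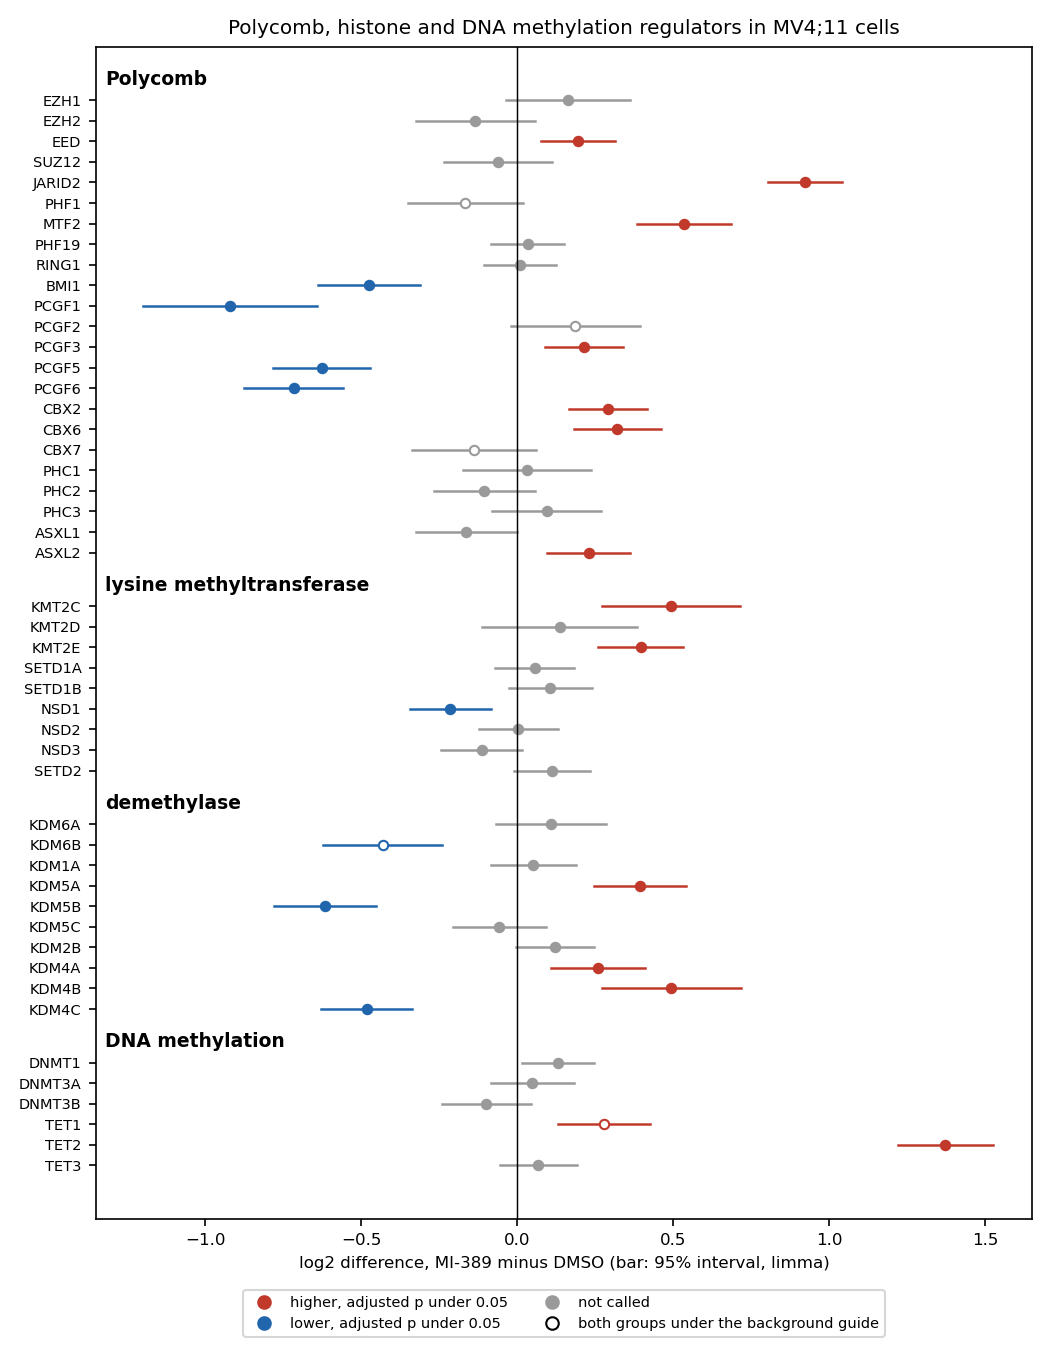
Difference in log2 level, MI-389 minus DMSO, for each of the 48 measured genes (points) with its 95% interval from limma (bars), by class. TET2 (1.37) and JARID2 (0.92) lie farthest to the right and PCGF1 (-0.92) and PCGF6 (-0.72) farthest to the left. Scaling to the hybridisation spike-ins would move every point by 0.25 to the left, and 20 of the 48 points then change sign, among them those of the called genes EED, PCGF3 and ASXL2.

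Of the 4 core subunits of PRC2 only EED was called, and of the 4 accessory subunits JARID2 and MTF2 rose. EZH2, the main methyltransferase of dividing cells, had levels of 8.42, 8.33 and 8.66 in MI-389 cells, against 8.68, 8.59 and 8.53 in DMSO cells. The groups overlapped, and the difference was -0.13 (95% interval -0.33 to 0.06, limma adjusted p = 0.283). EZH1, its paralog of resting cells, had 6.89, 6.54 and 6.70 in MI-389 cells and 6.45, 6.58 and 6.60 in DMSO cells, a difference of 0.16 (95% interval -0.03 to 0.36, limma adjusted p = 0.199). These groups overlapped too, and the mean of all EZH1 probe sets was called higher by 0.29 (adjusted p = 0.034). That mean includes a probe set higher by 0.71 with both groups under the guide (4.56 in MI-389 cells and 3.86 in DMSO cells). The remaining EZH1 probe set, also under the guide, differed by -0.01. Leaving out 1 array turned both genes into calls. Without MI-389 replicate 2 EZH1 was higher by 0.25 (adjusted p = 0.0449), and without MI-389 replicate 3 EZH2 was lower, at -0.23 (adjusted p = 0.0303). SUZ12, the scaffold of the complex, differed by -0.06 (95% interval -0.23 to 0.11). EED, which binds the finished mark, rose by 0.19 (SE 0.05, limma adjusted p = 0.017), and without DMSO replicate 2 or 3 it was not called (adjusted p = 0.0622 and 0.0532). Another of its 4 probe sets, at 6.13 in MI-389 cells and 6.35 in DMSO cells, was called lower by -0.22. Averaging all 4 left EED at 0.0051, not called (adjusted p = 0.956), and it stood at -0.058 under spike-in centring.

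JARID2, which helps to bring PRC2 to its targets, showed the largest rise among the Polycomb genes. Its levels were 8.88, 8.91 and 8.85 in MI-389 cells, against 7.99, 7.93 and 7.95 in DMSO cells. All 3 MI-389 arrays lay well above the DMSO arrays, a 1.90-fold rise (log2 difference 0.92, SE 0.05, limma adjusted p = 4.94e-07). Of its 5 probe sets, 4 were called higher and 0 lower. When a probe set without the suffix x, s or a in its name was preferred the difference was 0.36 (adjusted p = 7e-04). Another such probe set was called higher by 1.07, at 6.55 in MI-389 cells and 5.49 in DMSO cells. MTF2, a Polycomb-like protein that ties PRC2 to CpG-rich DNA, had levels of 9.25, 9.46 and 9.39 in MI-389 cells and 8.85, 8.78 and 8.86 in DMSO cells. Again the groups were separate, with a 1.45-fold rise (log2 difference 0.53, SE 0.07, limma adjusted p = 1.36e-04), and 8 of 9 probe sets were called higher. Its brightest probe set without the suffix x, s or a gave 0.35 (adjusted p = 0.00147). Another such probe set, with both groups under the guide, differed by 0.07 and was not called. Its paralogs did not pass. PHF19 differed by 0.03 (95% interval -0.08 to 0.15), and PHF1 by -0.17 with both groups under the guide.

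The PCGF subunits, each of which defines a form of PRC1, held 4 of the 8 falls. PCGF1 is the subunit of the form that contains BCOR and KDM2B. It had levels of 6.42, 6.51 and 5.97 in MI-389 cells, against 7.10, 7.30 and 7.26 in DMSO cells, a 1.89-fold fall (log2 difference -0.92, SE 0.13, limma adjusted p = 2.36e-04). The lowest array was MI-389 replicate 3, and the other two MI-389 arrays also lay below all DMSO arrays. PCGF6, the subunit of the form with MGA, E2F6 and L3MBTL2, had 6.39, 6.57 and 6.62 in MI-389 cells and 7.30, 7.22 and 7.21 in DMSO cells. With no overlap it was 1.64-fold lower (log2 difference -0.72, SE 0.07, limma adjusted p = 2.52e-05). PCGF5 had 7.20, 7.02 and 7.12 in MI-389 cells and 7.79, 7.79 and 7.64 in DMSO cells, a 1.54-fold fall (log2 difference -0.63, SE 0.07, limma adjusted p = 6.01e-05). It was called with 2 of its 5 probe sets. Averaging all 5 gave a difference of -0.28 (adjusted p = 0.00101). When a probe set without the suffix x, s or a was preferred PCGF5 stood at -0.05 and was not called. Another such probe set was called lower by -0.58, at 5.17 in MI-389 cells, under the guide, and 5.75 in DMSO cells. BMI1, the subunit known for the self-renewal of blood stem cells, had 8.21, 8.46 and 8.22 in MI-389 cells, against 8.76, 8.81 and 8.74 in DMSO cells. The groups were separate, and BMI1 was 1.39-fold lower (log2 difference -0.47, SE 0.07, limma adjusted p = 5.6e-04). Averaged with a second probe set under the guide it was lower by -0.31. PCGF1 and PCGF6 had 1 probe set each, so no other probe set bears on them. These and both probe sets of BMI1 carry the suffix a or s. Preferring a probe set without such a suffix therefore could not test these genes. PCGF3, the close paralog of PCGF5, rose by 0.21 (SE 0.05, limma adjusted p = 0.0124), but with the mean of all probe sets it was not called (0.03, adjusted p = 0.606), and it stood at -0.038 under spike-in centring. PCGF2, the paralog of BMI1, had both groups under the guide and was called only without MI-389 replicate 3 (0.29, adjusted p = 0.0179).

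The promoters of the largest rises and falls are shown because these are the genes the comparison turns on. Each runs from 250 bases before to 50 after the annotated start of the gene, in RefSeq's GRCh38.p14, and TET2, whose values follow below, is included. Capitals mark matches to 4 motifs, searched on both strands. The first was the core CCGGAA that ETS factors bind. The second was the CCAAT box bound by NF-Y. The palindrome CACGTG is an E-box, bound by MYC and its relatives. The last, TGATGNAA, is the composite site of ATF4 and C/EBP proteins. No match overlapped another in the 4 promoters shown. JARID2 lies at chr6:15245819-15246118 on the plus strand, TET2 at chr4:105145625-105145924 on the plus strand, PCGF1 at chr2:74507646-74507945 on the minus strand and PCGF6 at chr10:103351091-103351390 on the minus strand.
JARID2: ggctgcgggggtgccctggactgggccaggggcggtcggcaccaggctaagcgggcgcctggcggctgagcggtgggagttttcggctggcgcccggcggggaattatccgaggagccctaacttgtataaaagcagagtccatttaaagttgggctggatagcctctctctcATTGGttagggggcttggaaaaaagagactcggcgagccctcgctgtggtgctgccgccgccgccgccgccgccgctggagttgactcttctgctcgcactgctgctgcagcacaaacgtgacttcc
TET2: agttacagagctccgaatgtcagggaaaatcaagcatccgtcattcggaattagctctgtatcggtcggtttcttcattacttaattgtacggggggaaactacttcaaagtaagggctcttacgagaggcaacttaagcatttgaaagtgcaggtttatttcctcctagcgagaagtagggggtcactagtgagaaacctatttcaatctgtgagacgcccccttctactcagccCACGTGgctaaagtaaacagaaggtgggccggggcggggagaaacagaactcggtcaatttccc
PCGF1: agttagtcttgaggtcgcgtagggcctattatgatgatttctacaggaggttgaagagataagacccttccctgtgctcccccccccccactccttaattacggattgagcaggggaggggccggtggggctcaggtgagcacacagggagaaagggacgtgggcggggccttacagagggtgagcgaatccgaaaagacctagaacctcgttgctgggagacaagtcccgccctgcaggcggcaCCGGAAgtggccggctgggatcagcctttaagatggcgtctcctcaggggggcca
PCGF6: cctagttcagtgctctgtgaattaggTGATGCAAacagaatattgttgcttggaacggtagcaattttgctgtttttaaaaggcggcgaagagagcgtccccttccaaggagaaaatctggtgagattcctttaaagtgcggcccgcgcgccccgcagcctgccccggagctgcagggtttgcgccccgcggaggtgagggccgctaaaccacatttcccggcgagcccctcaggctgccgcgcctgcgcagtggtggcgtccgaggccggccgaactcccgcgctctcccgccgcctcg
Each held 1 match, a CCAAT box read on the opposite strand in JARID2, the E-box in TET2, the ETS core in PCGF1 and the ATF4 composite in PCGF6. Promoters were found for 46 of the 51 genes, among them RNF2, whose level was not analysed, and for 14492 of the genes tested. The E-box stood in 11 of the 46 promoters (23.9%) and in 8.81% of all promoters. The CCAAT box stood in 34.8% of the 46 and in 36.4% of all, the ETS core in 19.6% and 23.2%, and the ATF4 composite in 2.17% and 2.55%, in the same order. Of the 11 genes with the E-box, CBX6, KDM4B and TET2 rose, BMI1, NSD1 and KDM4C fell, and the other five were not called. The median number of CpG dinucleotides was 29 in the promoters of the set and 23 in all promoters. The promoter of TET2 held 13 and that of PCGF1 14, while those of JARID2 and PCGF6 held 24 and 28. A match of letters is a description of the sequence and not evidence of binding.

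**Figure D2:**
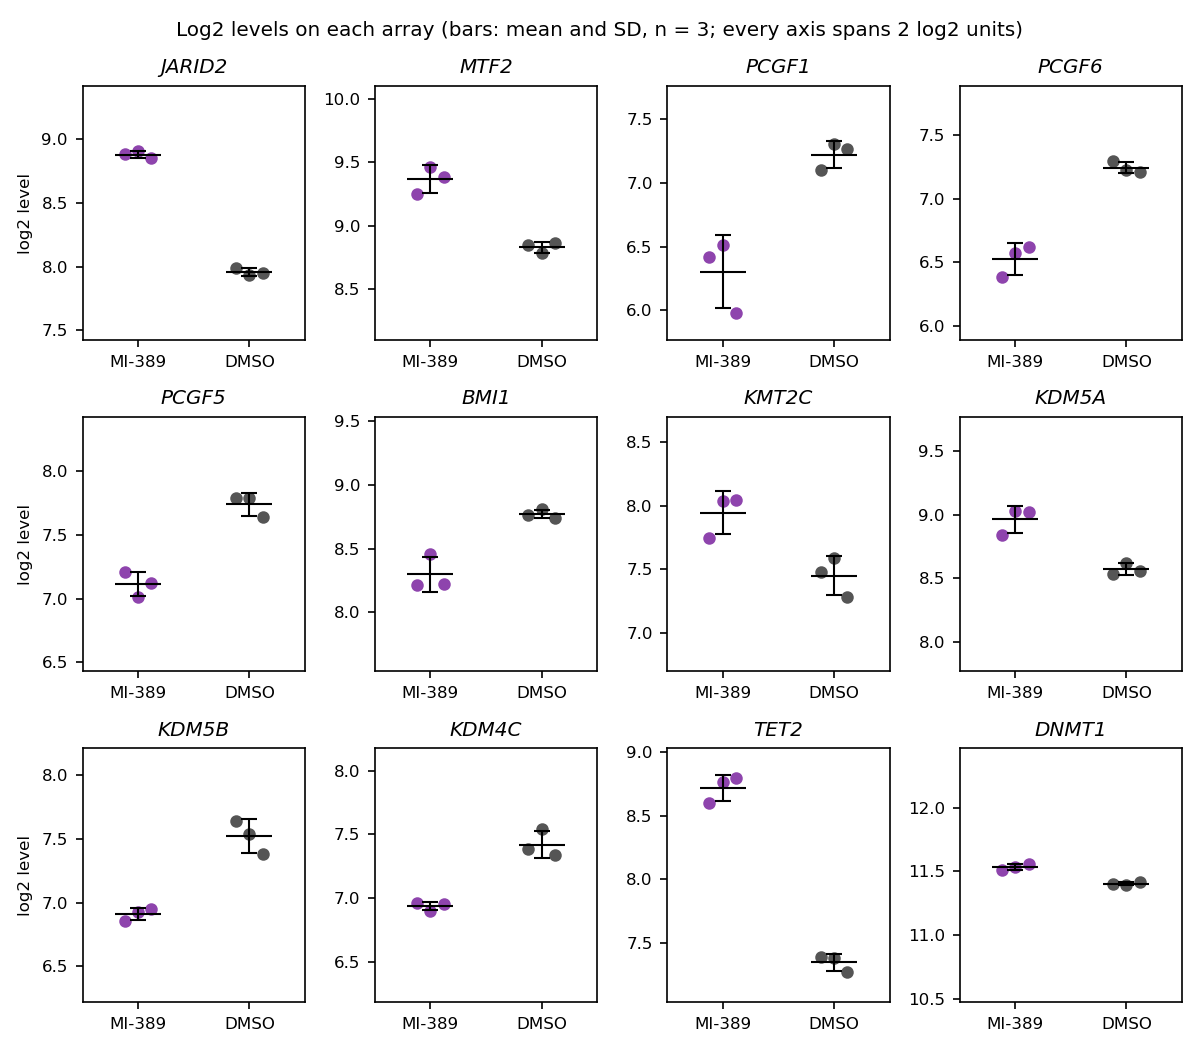
Log2 level on each array for 12 genes (points), MI-389 left and DMSO right, with the mean and SD of each group (n = 3). Every vertical axis spans the same width on the log2 scale, so distances can be compared between panels but levels cannot. JARID2, MTF2, KMT2C, KDM5A and TET2 rose, PCGF1, PCGF6, PCGF5, BMI1, KDM5B and KDM4C fell, and DNMT1 was not called. Under spike-in centring KDM5A was no longer called and the difference of DNMT1 changed sign.

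The remaining PRC1 and deubiquitinase subunits changed by less. Of the 3 measured CBX proteins, whose chromodomain reads the PRC2 mark, CBX6 rose by 0.32 (SE 0.06, limma adjusted p = 0.00234) and CBX2 by 0.29 (SE 0.06, limma adjusted p = 0.00233). The DMSO mean of CBX2, 5.30, lay under the guide, and with the mean of its probe sets the rise was 0.15. With spike-in centring neither was called. CBX7 had both groups under it. RING1, a ubiquitin ligase of PRC1, differed by 0.01 (95% interval -0.11 to 0.12). The PHC subunits, which link PRC1 particles into chains, differed by 0.03 (PHC1), -0.11 (PHC2) and 0.09 (PHC3), and 0 of 3 were called. ASXL2, a cofactor of the deubiquitinase that removes the PRC1 mark, rose by 0.23 (SE 0.06, limma adjusted p = 0.0126), but stood at -0.023 under spike-in centring. It was not called without DMSO replicate 1 (adjusted p = 0.0552) or when a probe set without the suffix x, s or a was preferred (0.11). Its paralog ASXL1 differed by -0.16 (limma adjusted p = 0.117), and was called without MI-389 replicate 3 (-0.23, adjusted p = 0.0317) and with array weights (adjusted p = 0.0488). PHC2 was called lower with the mean of its probe sets (-0.16, adjusted p = 0.0201).

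In a list of 23 other Polycomb genes, 2 rose and 11 fell, with a median difference of -0.11. These calls made up 56.5% of the list, beside 34.1% of all genes and 57.8% of genes with mean levels at the guide or more. Among all genes 18.4% rose and 15.7% fell. The largest falls were those of USP16, which removes ubiquitin from histone H2A (-0.56, SE 0.06), E2F6, the DNA-binding partner of PCGF6 (-0.52, SE 0.13), and BCOR, the partner of PCGF1 (-0.44, SE 0.06). RYBP (-0.22), YAF2 (-0.31), L3MBTL2 (-0.18), MBTD1 (-0.39), SFMBT1 (-0.26), AEBP2 (-0.20), FOXK1 (-0.28) and FOXK2 (-0.30) fell as well. MGA, a further partner of PCGF6, rose by 0.48 (SE 0.07), and so did RBBP7, a histone-binding subunit of PRC2, by 0.40 (SE 0.07). Of the named partners of PCGF6, E2F6 and L3MBTL2 moved with it and MGA moved against it, and for PCGF1 the partner BCOR fell while KDM2B was not called.

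Among the genes grouped under lysine 4 methylation, the MLL relatives KMT2C and KMT2E rose. KMT2C, which methylates enhancers, rose by 0.49 (SE 0.10, limma adjusted p = 0.00289), with 5 of its 6 probe sets higher by 0.49 to 0.96. Another 3 probe sets annotated jointly to KMT2C and BAGE genes were left out. KMT2E, a divergent relative that binds the trimethylated mark, rose by 0.40 (SE 0.06, limma adjusted p = 5.4e-04), with 3 of 9 probe sets called. It was not called when a probe set without the suffix x, s or a was preferred (0.24, adjusted p = 0.198) or with spike-in centring (0.14). KMT2D, the closest paralog of KMT2C, differed by 0.14 (95% interval -0.11 to 0.39), SETD1A by 0.06 and SETD1B by 0.11, none called. In a list of 17 measured other lysine methyltransferase genes, 1 rose and 6 fell, with a median of -0.07. The share called was 41.2%, beside 34.1% of all genes and 57.8% of genes with mean levels at the guide or more. The rise was that of KMT2A, the MLL gene itself (0.51, SE 0.07), and the largest falls were those of SMYD3 (-1.03, SE 0.06), SMYD2 (-0.80, SE 0.07) and SETD7 (-0.59, SE 0.06), smaller methyltransferases that also act on proteins other than histones.

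The writers of lysine 36 methylation showed no common direction, and probe sets disagreed. The brightest probe set of NSD1, an enzyme of the dimethyl mark, fell by 0.21 (SE 0.06, limma adjusted p = 0.0157), with 6.87, 6.83 and 6.82 in MI-389 cells and 7.13, 7.04 and 6.99 in DMSO cells. Another 4 of its 8 probe sets were called higher, by 0.48 to 0.71, all with both group means under the guide. With the mean of all probe sets NSD1 was higher by 0.29 (adjusted p = 0.00799), so its direction is not settled. NSD2 differed by 0.00 at its brightest probe set (95% interval -0.12 to 0.13) while 4 of its 12 probe sets were called higher, the largest by 0.66. The mean of its probe sets was called higher by 0.16 (adjusted p = 0.0234). NSD3 differed by -0.11 and SETD2, the enzyme of the trimethyl mark, by 0.11. For SETD2 a dimmer probe set had 6.45, 6.60 and 6.77 in MI-389 cells, against 6.00, 6.17 and 6.12 in DMSO cells, and was called higher by 0.51. The mean of its probe sets was called higher by 0.22 (adjusted p = 0.00383).

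**Figure D3:**
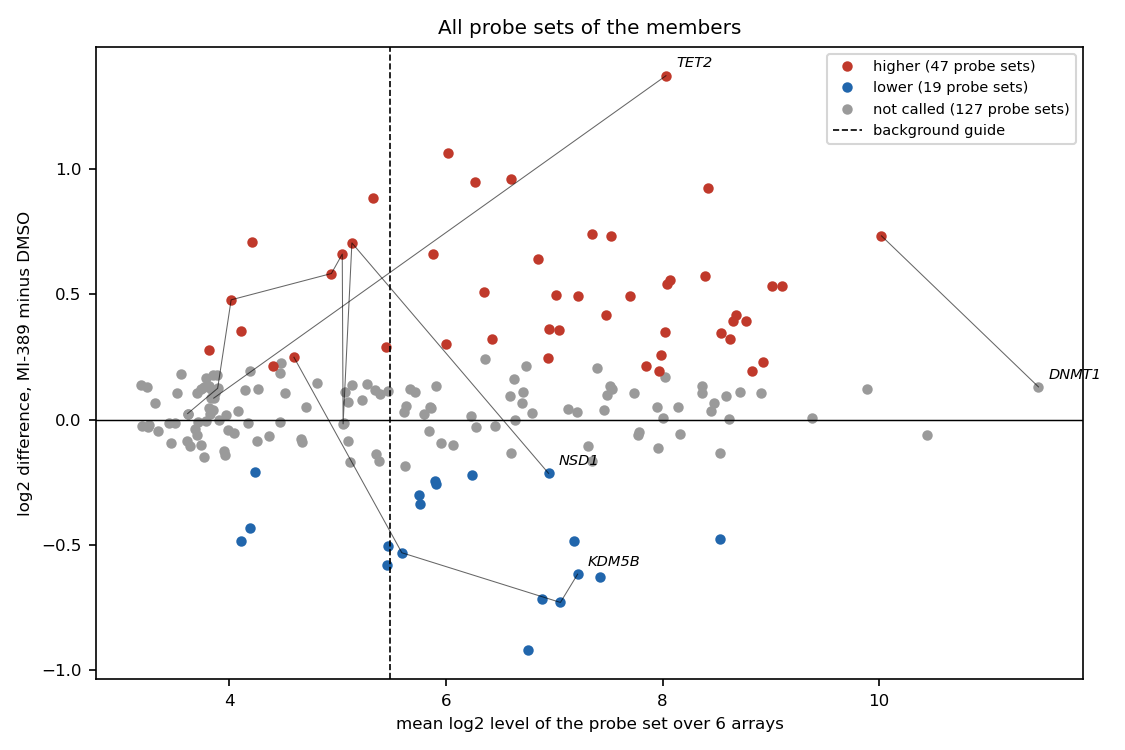
Log2 difference, MI-389 minus DMSO, against the mean log2 level over 6 arrays for each of the 193 probe sets. Thin lines join the probe sets of 4 genes in order of level, and the dashed line is the background guide of 5.49. The 47 higher and 19 lower probe sets lie on both sides of the guide. The brightest probe sets of DNMT1 and NSD1 differ from their dimmer ones.

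Demethylases of the same family moved in opposite directions. KDM5A and KDM5B both remove trimethylation of lysine 4. KDM5B had levels of 6.85, 6.92 and 6.95 in MI-389 cells, against 7.64, 7.54 and 7.38 in DMSO cells, a 1.53-fold fall with no overlap (log2 difference -0.62, SE 0.07, limma adjusted p = 8.89e-05). Of its 4 probe sets, 3 were lower, and 1 with both groups under the guide was higher by 0.25, and the mean of all was -0.41. KDM5A rose by 0.39 (SE 0.07, limma adjusted p = 9.86e-04), with 4 of 7 probe sets higher and 0 lower, and with spike-in centring it was not called. KDM5C differed by -0.06 (95% interval -0.21 to 0.09). In the KDM4 family, which acts on lysines 9 and 36, KDM4A rose by 0.26 (SE 0.07) and KDM4B by 0.49 (SE 0.10), while KDM4C fell by 0.48 (SE 0.07). Each of these 3 calls came from 1 probe set of the gene. With probe sets of suffix x, s or a used last KDM4A stood at 0.12, KDM4B at -0.01 and KDM4C at 0.14, none called. The probe sets behind these values of KDM4B and KDM4C had both groups under the guide. With the mean of all probe sets KDM4B was higher by 0.15 and KDM4C was not called (-0.15, adjusted p = 0.0739), and with spike-in centring KDM4A (0.01) and KDM4B (0.24) were not called.

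The demethylases that oppose PRC2 lay near the background. KDM6A, encoded on the X chromosome and known as UTX, had 5.61, 5.91 and 5.78 in MI-389 cells and 5.69, 5.70 and 5.59 in DMSO cells, with overlap (difference 0.11, 95% interval -0.07 to 0.28, limma adjusted p = 0.344). KDM6B, an inducible enzyme of macrophages, had 4.08, 4.03 and 3.82 in MI-389 cells and 4.41, 4.53 and 4.29 in DMSO cells. It was called lower (-0.43, SE 0.08, limma adjusted p = 0.00267) with both of its probe sets, but all values lay under the guide. KDM1A, the flavin-dependent demethylase LSD1, had 8.24, 8.09 and 8.17 in MI-389 cells and 8.06, 8.15 and 8.14 in DMSO cells. The groups overlapped, with a difference of 0.05 (95% interval -0.09 to 0.19, limma adjusted p = 0.587). KDM2B, which also belongs to the PCGF1 form of PRC1, differed by 0.12 (limma adjusted p = 0.133), with 0 of 5 probe sets called, and was called under the intensity trend (adjusted p = 0.0397).

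In a list of 11 other demethylase genes, 4 rose and 2 fell, with a median of 0.15. The share called was 54.5%, beside 34.1% of all genes and 57.8% of genes with mean levels at the guide or more. Both falls were larger in size than any difference among the 48 genes. KDM7A, a demethylase of lysines 9 and 27, was lower by -1.92 (SE 0.09), at 3.97 in MI-389 cells, under the guide, and 5.89 in DMSO cells. JMJD1C, of the KDM3 family, was at 7.92 ± 0.07 in MI-389 cells and 9.39 ± 0.06 in DMSO cells (SD, n = 3 each), 2.77-fold lower. The LSD1 partner RCOR1 rose by 0.46 (SE 0.05), the LSD1 paralog KDM1B by 0.47 (SE 0.06) and KDM3B by 0.31 (SE 0.05).

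TET2 changed more than any other of the 48 genes. It had levels of 8.60, 8.76 and 8.79 in MI-389 cells, against 7.39, 7.38 and 7.27 in DMSO cells. Its groups were far apart, a 2.59-fold rise (log2 difference 1.37, SE 0.07, limma adjusted p = 1.74e-07), which ranked 405 by size among the 18239 genes. A second probe set of TET2, at 3.90 in MI-389 cells and 3.81 in DMSO cells, lay under the guide and was not called, and the mean of both was higher by 0.73. TET3 had 8.48, 8.55 and 8.50 in MI-389 cells and 8.47, 8.47 and 8.39 in DMSO cells, a difference of 0.07 (95% interval -0.06 to 0.19, limma adjusted p = 0.407). TET1, reported as a target of MLL fusion proteins, had 4.03, 4.00 and 3.83 in MI-389 cells and 3.69, 3.71 and 3.62 in DMSO cells. It was called higher by 0.28 (SE 0.07, limma adjusted p = 0.00787), but all values lay under the guide and it was not called with spike-in centring (0.03).

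The DNA methyltransferases were not called at their brightest probe sets. DNMT1, which copies methylation after replication, had 11.51, 11.53 and 11.56 in MI-389 cells and 11.40, 11.39 and 11.42 in DMSO cells. The groups were separate by a small margin (difference 0.13, SE 0.05, limma adjusted p = 0.0793). Its second probe set had 10.31, 10.30 and 10.55 in MI-389 cells, against 9.58, 9.61 and 9.77 in DMSO cells, and was called higher by 0.73 (SE 0.08, limma adjusted p over all probe sets = 8.77e-05). With the mean of both DNMT1 was higher by 0.43 (adjusted p = 1.53e-04), and its brightest probe set was called with dim genes left out (adjusted p = 0.0399) and under the intensity trend (adjusted p = 0.00273). DNMT3A, a writer of new methylation, had 5.97, 5.85 and 5.85 in MI-389 cells and 5.81, 5.89 and 5.83 in DMSO cells, with overlap (difference 0.05, 95% interval -0.08 to 0.18, limma adjusted p = 0.6). A dimmer probe set of DNMT3A, near the guide, had 5.06, 5.39 and 5.18 in MI-389 cells and 5.60, 5.85 and 5.70 in DMSO cells, and was called lower (-0.50, SE 0.09). DNMT3B had 6.07, 6.06 and 5.93 in MI-389 cells and 6.19, 6.11 and 6.05 in DMSO cells (difference -0.10, 95% interval -0.24 to 0.04, limma adjusted p = 0.283), with 2 of 11 probe sets called lower and 0 higher.

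Of 12 measured other genes of DNA methylation, 6 rose and 3 fell, with a median of 0.15. The share called was 75%, beside 34.1% of all genes and 57.8% of genes with mean levels at the guide or more. MBD4, a glycosylase that repairs deaminated methylcytosine, rose by 0.64 (SE 0.05), IDH1, which makes the cosubstrate of TET enzymes, by 0.38 (SE 0.09), and UHRF1, the partner of DNMT1, by 0.33 (SE 0.05). ZBTB38, a reader of methylated DNA with both groups under the guide (-0.58, SE 0.10), UHRF2, the paralog of UHRF1 (-0.42, SE 0.06), and the glycosylase TDG (-0.31, SE 0.08) fell. Of 14 proliferation markers, 10 rose and 0 fell, among them TOP2A (0.92, SE 0.06), MCM4 (0.75, SE 0.07) and PCNA (0.63, SE 0.05), while MKI67 differed by -0.15 (limma adjusted p = 0.115). Here 71.4% were called, beside the same 34.1% and 57.8%. The mean log2 level of these 14 markers was 9.53 to 9.59 on the MI-389 arrays and 9.22 to 9.24 on the DMSO arrays. Their part in the differences described here was not tested.

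**Figure D4:**
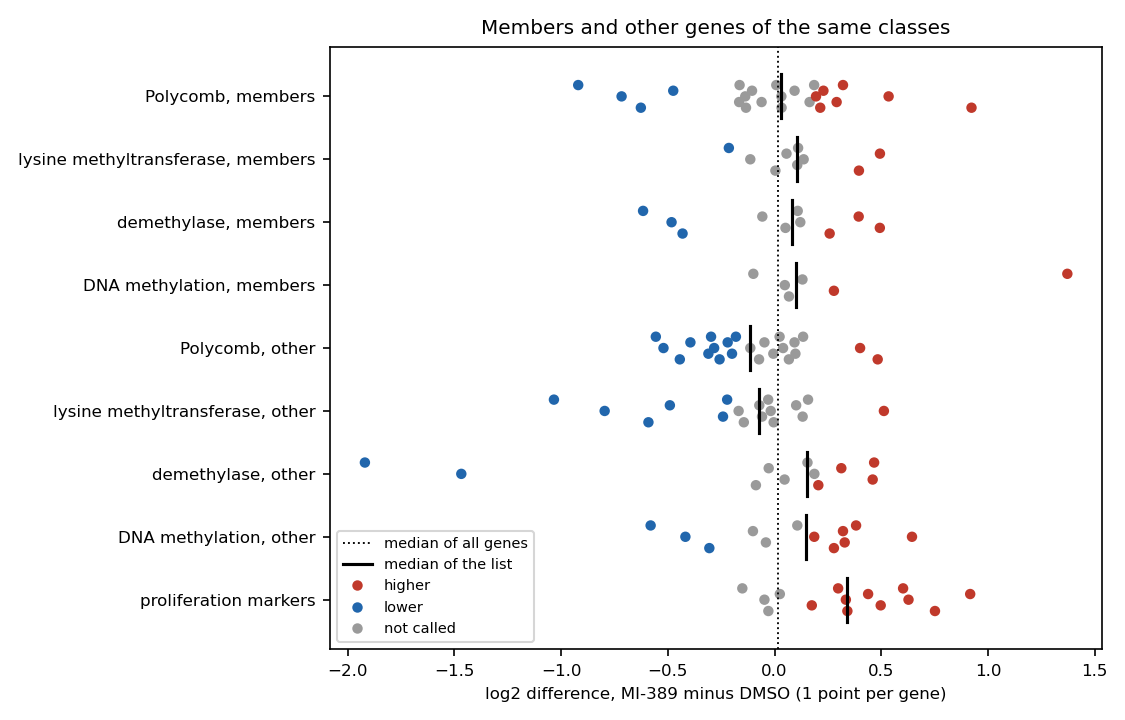
Log2 difference, MI-389 minus DMSO, for each gene (points) of the 4 classes, of the other genes of each class and of the proliferation markers, with the median of each list (bars) and of all genes (dotted line, 0.02). The medians of the other Polycomb genes (-0.11) and other methyltransferases (-0.07) lie left of the dotted line and that of the proliferation markers (0.34) right of it. Spike-in centring moves all points by 0.25 to the left and leaves their distances unchanged.

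At the level of single probe sets, 47 of 193 were higher and 19 lower, against 14% of all probe sets in each direction. Of the 193, 83 had both groups under the guide, and 12 of these were called, while 54 of the other 110 were called. Among all 49293 probe sets a larger share, 30383, had both groups under the guide, so the 14% is drawn from dimmer probe sets. The share called among all probe sets above the guide was not computed. EED, NSD1 and KDM5B had probe sets called in both directions. Another 10 genes not called at their brightest probe set had at least 1 dimmer probe set called: EZH1, PHF19, PHC2, ASXL1, NSD2, NSD3, SETD2, DNMT1, DNMT3A and DNMT3B. JARID2, MTF2, KMT2C, KMT2E and KDM5A had several probe sets higher and 0 lower. Which transcript each probe set reads was not examined, and no coordinates of probes were used.

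The scale of the arrays bears on every direction given above. The hybridisation spike-ins were 0.25 higher on the MI-389 arrays (SE 0.04). They are added at hybridisation, so whether the amount of RNA per cell differed was not tested. Once each array was centred on these controls the median of all genes was -0.23 and that of the 48 genes -0.19. Counted so, 4 of the 48 genes rose (JARID2, MTF2, KMT2C and TET2) and 24 fell. Of all 18239 genes, 1397 rose and 11056 fell under the same centring. Relative to the median of all genes the differences stay as given.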

How the data were processed

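Per the labels' protocols, total RNA was extracted with a column kit and labelled with biotin by the Affymetrix 3-prime procedure. The submitters' processing notes name RMA and limma, without versions or settings. The deposited log2 values, with array medians of 4.47 to 4.49, were used unchanged. RMA compresses dim probe sets, which understates their differences. Precision is limited by the number of arrays.

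Of 49386 probe sets, 93 controls were left out. Gene names came from the platform annotation, updated by gene ID to RefSeq symbols (GRCh38.p14). Of 45253 probe sets annotated to 1 gene, 45172 matched. Groups were compared with limma 3.58.1 in R 4.3.3 (lmFit, eBayes, two-sided, no covariates, Benjamini-Hochberg adjustment), and the fit was tested on simulated data. Values on every array are given for called members differing by at least 0.5 and for 12 fixed genes (EZH1, EZH2, BMI1, KDM6A, KDM6B, KDM1A, DNMT1, DNMT3A, DNMT3B, TET1, TET2, TET3). Other values on single arrays, such as those of single probe sets and of NSD1, were chosen after they were seen. Other pathway lists name up to 3 genes in each direction by size, and the further Polycomb genes were named after their values were seen. The members, lists and motifs were chosen with earlier results of these data known. Alternatives were other normalisations, filters, variance models, probe set rules and thresholds, the replicate number as a block, and each array left out.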

Additional observations from a re-analysis of the deposited data

How the results depend on the processing

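The counts held within 1.5 times of those reported under a common median, a further quantile normalisation, a filter on dim genes, an intensity trend and array weights. Leaving out single arrays gave 13 to 15 members higher and 7 to 10 lower. The 1 fall among lysine methyltransferases (NSD1) went to 0 without DMSO replicate 1, and was 1 without any other array. No label ties equal replicate numbers to a shared batch, and same-numbered arrays did not deviate together (r = -0.20, 0.02 and -0.14). With the replicate number as a block 5725 genes were called in place of 6214, and 14 members higher and 8 lower, the same 22 calls.

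Limma treat against a fold of 1.2 left 2457 of the 18239 genes, 1282 higher and 1175 lower. Among them were 3 members higher and 5 lower. By class it left 2 Polycomb genes, 0 methyltransferases, 0 demethylases and 1 gene of DNA methylation higher, and 0 methyltransferases lower. At an adjusted p under 0.01, 4 Polycomb genes were higher and 0 methyltransferases lower. With the mean of all probe sets 5 methyltransferases were higher and 0 lower, where 3264 of all 18239 genes were higher and 2996 lower. With probe sets of suffix x, s or a used last 5 members were lower in all, with 0 methyltransferases lower and 1 demethylase higher. Of all 18239 genes, 2878 were higher and 2562 lower under that rule. Counting genes with at least 1 called probe set gave 14 members lower, of them 8 Polycomb genes and 2 of DNA methylation, and 6 methyltransferases higher. This was not counted over all genes, so no share stands beside it, and genes with more probe sets are counted more easily.

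Centring on the spike-ins called 12453 of the 18239 genes, 1397 higher and 11056 lower. Of these calls 11.2% were higher, against 53.9% as deposited. It left 4 members higher and 24 lower. The higher ones were 2 Polycomb genes, 1 methyltransferase, 0 demethylases and 1 gene of DNA methylation, and the lower ones 12, 4, 5 and 3 in the same order. Of the 48 differences 20 changed sign under it, all by the same shift: EZH1 (-0.088), EED (-0.058), PHF19 (-0.22), RING1 (-0.24), PCGF2 (-0.067), PCGF3 (-0.038), PHC1 (-0.22), PHC3 (-0.16), ASXL2 (-0.023), KMT2D (-0.12), SETD1A (-0.20), SETD1B (-0.15), NSD2 (-0.25), SETD2 (-0.14), KDM6A (-0.14), KDM1A (-0.20), KDM2B (-0.13), DNMT1 (-0.12), DNMT3A (-0.20) and TET3 (-0.18). With suffixes x, s or a used last EED (-0.061), SUZ12 (0.0086), PCGF2 (-0.013), NSD1 (0.66), KDM4B (-0.0072) and KDM4C (0.14) changed sign. All but SUZ12 were read from probe sets with both groups under the guide. With the mean of all probe sets NSD1 (0.29), NSD3 (0.052), KDM5C (0.026) and DNMT3A (-0.11) changed sign. Differences close to 0 changed sign under a common median (RING1 -0.011, NSD2 -0.015) and array weights (PHC1 -0.024, NSD2 -0.011). Leaving out single arrays gave -0.0048 to 0.018 for RING1, -0.073 to 0.10 for PHC1, -0.021 to 0.044 for NSD2 and -0.11 to 1.5e-06 for KDM5C.
For the other alternatives that moved a count the cause was not tested.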
